A study of Rattus norvegicus with 6 samples.

Results

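NRF2 is the transcription factor that switches on the antioxidant and detoxifying genes of the cell, and the set described here comprises NRF2 itself, its sensor KEAP1 and 8 of its best known target genes. Members were all probe sets that the platform annotation assigns to exactly 1 of the 10 gene symbols. This gave 15 probe sets for 10 genes, out of 31042 probe sets other than controls and 14217 genes with 1 symbol. The members were chosen by the Nqo1 difference between probiotic and high-fat livers on these same arrays, around which the known pathway was assembled, so the Nqo1 difference is given as a description without a test, and no independent support is drawn from it.

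Total RNA of 6 liver samples from hypercholesterolemic rats was hybridised to 1-colour Affymetrix arrays. Probiotic samples (3) came from rats given fat-rich chow for 30 d and then, while staying on it for 30 d, a daily gavage of 1 ml saline with Lactobacillus casei Zhang, a lactic acid bacterium. High-fat samples (3), the controls, came from rats on the same diet and schedule given the saline alone, so both groups carried the diet-induced hypercholesterolemia and neither is a lean liver. Strain, sex and age are not given in the labels, and nothing states that each sample is a separate rat, so p-values measure the spread between these samples.

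Without stress, KEAP1 holds NRF2 in the cytoplasm and, as the adaptor of a CUL3 ubiquitin ligase, sends it to the proteasome. Electrophiles and oxidants modify cysteines of KEAP1, NRF2 then accumulates, pairs with small MAF proteins and binds antioxidant response elements near its target genes. NRF2 is thus controlled largely at the protein level, and in liver the transcripts of its targets, Nqo1 first among them, are commonly read as a gauge of its activity.

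The antioxidant response element has the core TGACNNNGC, and Nqo1 also answers to the aryl hydrocarbon receptor, AHR, which binds the core GCGTG. Both cores were searched on both strands of the RefSeq promoter windows of assembly GRCr8, which span 250 bases before and 50 after an annotated start. Windows were found for 8 of the 10 genes, 9 windows in all, since Txnrd1 has 2 starts; Hmox1 and Gsr had no entry. The TGACNNNGC core lay in 3 of the 9 windows, those of Gclm, Nfe2l2 and the downstream start of Txnrd1, against 12.1% of all 33469 windows. The GCGTG core lay in 5 of the 9 windows, those of Nqo1, Gclc, Keap1, Srxn1 and the downstream start of Txnrd1, against 29.7% of all windows, and no match of one core overlapped a match of the other in these windows. Shown are the 250 bases before the start of Nqo1, the gene with the largest difference, and of Gclm and Txnrd1, the 2 targets with a TGACNNNGC core before the start. Each is written 5′ to 3′ on the strand of the gene, with 1 core in capitals. The Nqo1 capitals are GCGTG on the opposite strand, 10 bases before the start (chr19:52220268-52220517, minus strand). The Gclm capitals are TGACNNNGC on the opposite strand, 172 bases before the start (chr2:213031885-213032134, plus strand). The Txnrd1 capitals are the same core on the opposite strand, 78 bases before the start (chr7:22755905-22756154, minus strand).
Nqo1: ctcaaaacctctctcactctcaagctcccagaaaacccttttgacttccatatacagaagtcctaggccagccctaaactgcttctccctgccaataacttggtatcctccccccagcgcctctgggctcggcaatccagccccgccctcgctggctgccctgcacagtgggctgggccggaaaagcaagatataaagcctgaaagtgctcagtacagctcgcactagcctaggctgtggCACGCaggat
Gclm: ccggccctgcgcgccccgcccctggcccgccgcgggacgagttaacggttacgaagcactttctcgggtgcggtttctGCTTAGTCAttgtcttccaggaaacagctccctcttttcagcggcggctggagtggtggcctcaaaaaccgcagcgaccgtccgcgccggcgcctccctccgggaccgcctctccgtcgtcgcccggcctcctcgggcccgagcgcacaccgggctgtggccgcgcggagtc
Txnrd1: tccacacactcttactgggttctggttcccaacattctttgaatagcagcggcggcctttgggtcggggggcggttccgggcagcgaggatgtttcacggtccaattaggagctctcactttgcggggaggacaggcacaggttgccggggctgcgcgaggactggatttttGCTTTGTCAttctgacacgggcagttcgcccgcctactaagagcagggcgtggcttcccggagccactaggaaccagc
The Nqo1 window held no TGACNNNGC core, which says only that these letters are not within this stretch.

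Levels below are log2(intensity + 16) after quantile normalization, and differences are probiotic minus high-fat on that scale. A level is compared between arrays for the same probe set only. Of the 15 member probe sets, 13 passed the signal filter, a mean level of at least 6.30 (the 40th percentile), and were tested with 18625 probe sets in all. The 2 that did not pass were the Slc7a11 probe set and the dimmest of 3 for Srxn1. With limma and Benjamini-Hochberg adjustment over all probe sets, 0 of the 12 tested member probe sets other than that of Nqo1 passed 0.05 in either direction, against 0.0215% of all probe sets tested called lower and 0% called higher. At an unadjusted p under 0.05 there were 2 of the 12, those of Hmox1 and the dimmer one of Txnrd1, both lower in the probiotic group, against 6.85% of all probe sets tested, which are 1275, and 3.86% that were also lower. Probiotic and high-fat values did not overlap for 1 of the 12, the dimmer one of Txnrd1, which was lower, against 6.7% of all probe sets tested, and for 0 that were higher, against 6.02%. Since the set was built from this contrast, these shares are printed without a reading.

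Nqo1 encodes the NAD(P)H quinone dehydrogenase that reduces quinones in a single step and so keeps them from cycling with oxygen. The deposited intensities of its only probe set were 2267.3, 1468.3 and 2027 in probiotic samples 1, 2 and 3, and 7801.7, 4252.3 and 3981.9 in high-fat samples 1, 2 and 3. All 3 probiotic arrays lay below all 3 high-fat arrays, and high-fat sample 1 stood well above the other high-fat arrays. On the log2 scale the level was 10.90 ± 0.338 in the probiotic group and 12.33 ± 0.553 in high-fat livers (mean ± SD, n = 3 each). The difference was -1.43, or 2.7-fold less, and of the 10573 genes tested by their brightest probe set 0.331% had a difference this low or lower. Leaving out high-fat sample 1 gave -1.12 and leaving out high-fat sample 3 gave -1.64, the ends of the range over single samples left out, and adjustment for the Actb gap (described next) gave -1.17. The suffix of the probe set, a_at, marks probes shared by transcripts of 1 gene, and the annotation names Nqo1 alone.

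**Figure D1:**
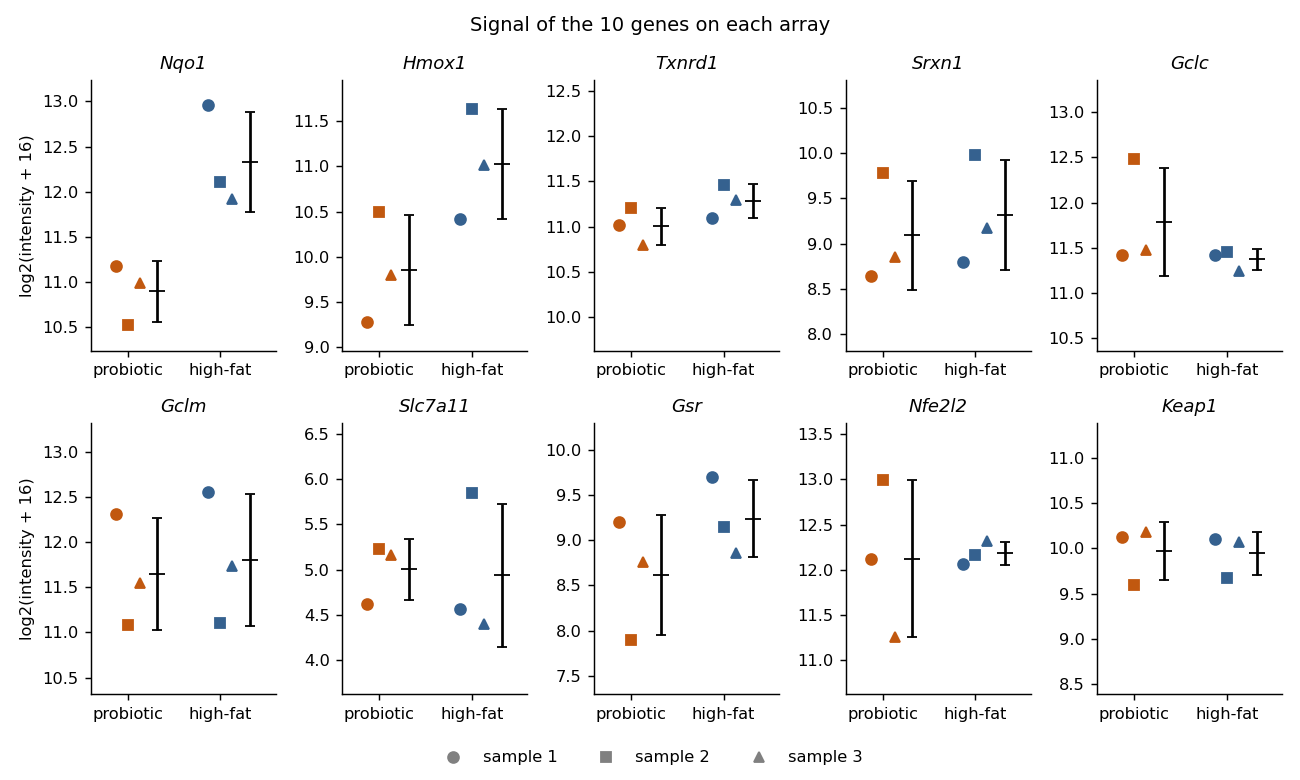
Signal of the brightest probe set of each of the 10 genes on the 6 arrays, as log2(intensity + 16) after quantile normalization, with a span of 3 log2 units on every vertical axis. Symbols are samples 1 to 3 of each group, and the bar beside them is the mean ± SD (n = 3). Only Nqo1 has all probiotic arrays below all high-fat arrays, and Hmox1 and Txnrd1 each overlap by a single pair of arrays.

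Signs of RNA integrity and of blood content varied between the arrays, and their part in the differences was not tested. The Actb gap, the signal of a control probe set at the 3' end of the transcript less that of one at its 5' end and larger where transcripts are shorter, was 2.08, 3.07 and 2.39 log2 units in probiotic samples 1, 2 and 3, and 1.95, 1.48 and 1.97 in high-fat samples 1, 2 and 3. The means were 2.51 ± 0.504 in probiotic and 1.80 ± 0.279 in high-fat samples (SD, n = 3 each; exact two-sided permutation p = 0.1, the smallest that 3 against 3 allows). Probiotic sample 2 had the largest gap and high-fat sample 2 the smallest. All 3 probiotic gaps lay above all 3 high-fat gaps, so the gap and the treatment cannot be told apart on these arrays. Differences adjusted for the Actb gap are given as descriptions only. For Gapdh the gap averaged 1.17 ± 0.463 in probiotic and 0.594 ± 0.14 in high-fat samples (exact permutation p = 0.2, n = 3 each). Hepatocyte markers, strong on every array, overlapped between the groups, with a summed linear signal of 337474 to 357354 in probiotic and 331621 to 366778 in high-fat samples over 6 measured genes. Quantile normalization gives the brightest ranks the same values on every array, so this overlap says little about hepatocyte content. Red blood cell markers had higher means in the probiotic group for 4 of 4 measured genes, where 48.6% of all genes tested were lower. Their sums were 31327 to 58720 in probiotic and 18496 to 28567 in high-fat samples. Hbb, at 15.18 in probiotic and 14.46 in high-fat samples, makes up most of these sums. Groups separated for Hbb (0.719) and Alas2 (1.06), against 5.93% of all genes tested separating higher. Slc4a1 (0.147) and Bpgm (0.612) overlapped between the groups. Whole liver was measured, so fewer cells of a type and less RNA per cell cannot be told apart.

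The other targets were mostly a little lower, and none separated the groups by its brightest probe set as Nqo1 did. Of the 7 other core targets, 6 passed the signal filter, of which 5 had lower values and 1 higher values in the probiotic group, where 48.6% of all genes tested were lower. Their median difference was -0.25, against 0.0106 over all genes tested. For 0 of the 6 did the groups separate, against 6.42% of all genes tested separating lower. The median was -0.24 after adjustment for the Actb gap, where Gclm and Gsr had positive differences and Gclc a negative one. These adjusted differences were 0.12 for Gclm (SE 0.593), 0.0631 for Gsr (SE 0.449) and -0.16 for Gclc (SE 0.318), each smaller in size than its SE. Leaving out probiotic sample 3 gave -0.14, leaving out probiotic sample 1 gave -0.385 and leaving out high-fat sample 1 gave -0.38, while averaging the probe sets of a gene gave -0.387.

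Hmox1, heme oxygenase 1, opens the heme ring to biliverdin, iron and carbon monoxide, and in liver it is abundant in the macrophages that clear spent red cells. Its levels were 9.28, 10.49 and 9.80 in probiotic samples 1, 2 and 3, and 10.42, 11.64 and 11.01 in high-fat samples 1, 2 and 3. Probiotic sample 2 lay just above high-fat sample 1, and every other probiotic array lay below every high-fat array. The difference was -1.17, or 2.24-fold less (95% interval -1.99 to -0.34, SE 0.367), with an unadjusted p of 0.0107 and an adjusted p of 0.726 in limma's fit, and 0.823% of all genes tested were as low or lower. It was -1.50 after adjustment for the Actb gap, and -0.859 to -1.47 with single samples left out. The 10 measured Kupffer cell and macrophage markers, all above the signal filter and so none with a level near 0, had lower means too in 10 of 10 cases, with 0 past the adjusted threshold. The differences ran from -0.606 to -0.147 (Adgre1, 95% interval -0.77 to 0.476), with a median of -0.40, which was -0.119 after adjustment for the Actb gap and -0.166 without both sample 2 arrays. Their summed linear signal was 13244 to 16605 in probiotic and 16511 to 21791 in high-fat samples. Marco and Vsig4, which the list also holds, had no probe set with that symbol alone. High-fat sample 2 had both the highest Hmox1 level and the highest marker sum, at 21791. That array also held the highest level of 23.1% of all genes tested. Probiotic sample 2 had the highest Hmox1 level of its group but the lowest marker sum of all arrays, at 13244. The sums of the groups overlapped, with 16605 in probiotic sample 3 and 16511 in high-fat sample 1. The part of the macrophage markers in the Hmox1 difference was not tested.

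Thioredoxin reductase 1, Txnrd1, which recharges thioredoxin with electrons from NADPH, was read by 2 probe sets whose differences were unequal. The brighter had levels of 11.02, 11.20 and 10.79 in probiotic samples 1, 2 and 3, and 11.09, 11.46 and 11.29 in high-fat samples 1, 2 and 3. Only probiotic sample 2 reached into the high-fat range, and the difference was -0.27 (95% interval -0.70 to 0.15, adjusted p = 0.76 with limma). The dimmer had 10.05, 9.31 and 9.58 in probiotic samples 1, 2 and 3, and 10.57, 10.97 and 10.26 in high-fat samples 1, 2 and 3. Here the groups did not overlap, with a difference of -0.95, or 1.94-fold less (95% interval -1.55 to -0.36, unadjusted p = 0.00528, adjusted p = 0.726 with limma). After adjustment for the Actb gap the dimmer probe set had -0.375 and the brighter one -0.32, and without both sample 2 arrays the dimmer had -0.596. The arrays with the largest and the smallest Actb gap, probiotic sample 2 and high-fat sample 2, also held the lowest and the highest value of the dimmer probe set.

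Srxn1, sulfiredoxin, which rescues overoxidised peroxiredoxins, varied more within the groups than between them. Its brightest probe set had levels of 8.64, 9.78 and 8.85 in probiotic samples 1, 2 and 3, and 8.80, 9.98 and 9.17 in high-fat samples 1, 2 and 3. The sample 2 array was the highest of its group both times, and the difference of -0.23 was small beside the SD of 0.606 in probiotic and 0.607 in high-fat samples (95% interval -1.08 to 0.63, adjusted p = 0.905 with limma). The next probe set gave 0.04 and the dimmest, below the signal filter, 0.39.

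The genes of glutathione synthesis and recycling differed in sign. Gclc encodes the catalytic subunit of glutamate-cysteine ligase, the rate-limiting enzyme of glutathione synthesis, and its brightest probe set had 11.42, 12.48 and 11.47 in probiotic samples 1, 2 and 3, and 11.42, 11.45 and 11.24 in high-fat samples 1, 2 and 3. Probiotic sample 2 alone stood above the rest. The difference of 0.42 (95% interval -0.20 to 1.04, adjusted p = 0.75 with limma) was 0.0761 without that sample and -0.16 after adjustment for the Actb gap. A second Gclc probe set gave 0.04 (95% interval -0.42 to 0.50). Gclm, the modifier subunit of the same enzyme, had 12.31, 11.08 and 11.55 in probiotic samples 1, 2 and 3, and 12.56, 11.11 and 11.74 in high-fat samples 1, 2 and 3. In both groups sample 1 was highest and sample 2 lowest, and the spread within groups exceeded the difference of -0.16 (95% interval -1.04 to 0.72, adjusted p = 0.944 with limma). Its sign turned to 0.126 without probiotic sample 2 and to 0.217 without high-fat sample 1.

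Gsr, glutathione reductase, which returns oxidised glutathione to its reduced form, had levels of 9.20, 7.89 and 8.76 in probiotic samples 1, 2 and 3, and 9.70, 9.14 and 8.86 in high-fat samples 1, 2 and 3. Probiotic sample 1 lay above the 2 lower high-fat arrays. The difference was -0.62, or 1.53-fold less (95% interval -1.43 to 0.19, adjusted p = 0.74 with limma), and it was -0.254 without probiotic sample 2 and 0.0631 after adjustment for the Actb gap. Slc7a11, the cystine importer xCT that supplies cysteine for glutathione, is known to be low in liver, and its deposited intensities were 8.7, 20.1 and 18.4 in probiotic samples 1, 2 and 3, and 8.1, 52.7 and 3.2 in high-fat samples 1, 2 and 3. The probe set was below the signal filter, and at these intensities no difference could be measured.

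**Figure D2:**
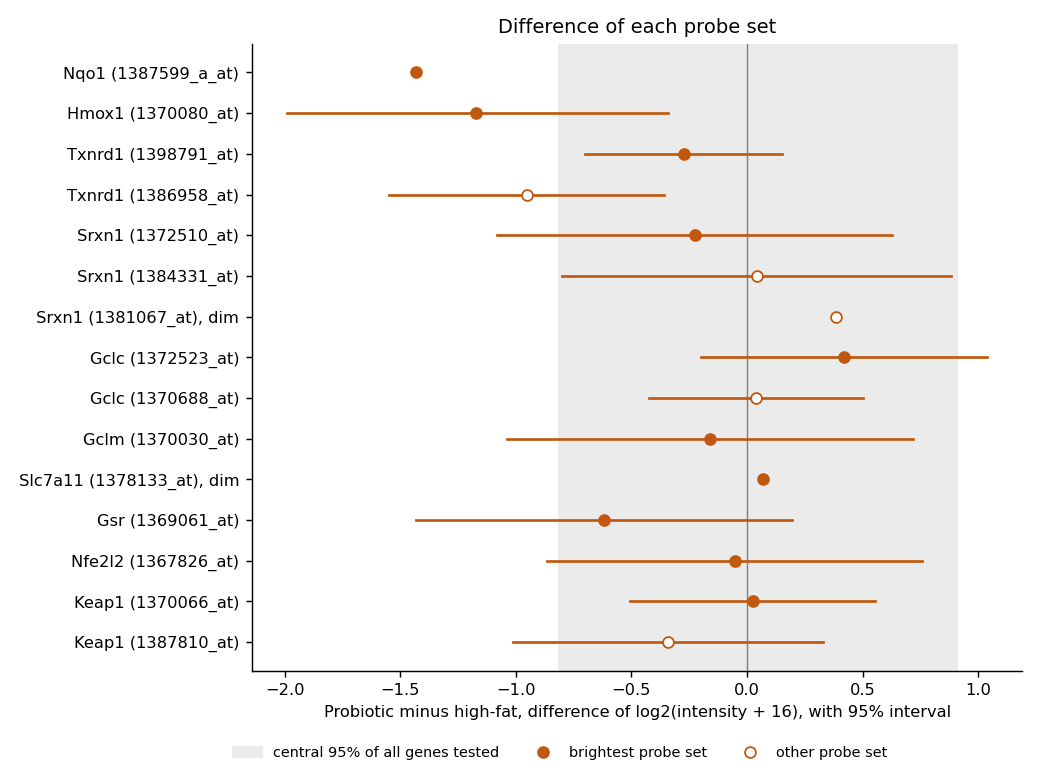
Difference of each of the 15 member probe sets, probiotic minus high-fat, with limma's 95% interval as a line where the probe set was tested (none is drawn for Nqo1, which chose the set). Filled points are the brightest probe set of a gene, and the grey band, from -0.813 to 0.907, holds the central 95% of the 10573 genes tested. Nqo1, Hmox1 and the dimmer Txnrd1 probe set lie left of the band, and the other points lie inside it.

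NRF2 and its sensor showed no difference beyond the spread at the transcript level. Nfe2l2, the gene of NRF2, had levels of 12.12, 12.99 and 11.26 in probiotic samples 1, 2 and 3, and 12.06, 12.16 and 12.32 in high-fat samples 1, 2 and 3. The probiotic arrays spanned 1.73 log2 units and enclosed all high-fat arrays, which lay close together (SD 0.866 in probiotic and 0.132 in high-fat samples, n = 3 each). The difference was -0.05 (95% interval -0.86 to 0.76, adjusted p = 0.979 with limma), and it was 0.378 without probiotic sample 3, -0.489 without probiotic sample 2, -0.429 with array weights and -0.696 after adjustment for the Actb gap. Keap1 had 10.13, 9.60 and 10.18 in probiotic samples 1, 2 and 3, and 10.10, 9.67 and 10.07 in high-fat samples 1, 2 and 3. Both groups had sample 2 lowest, and the difference was 0.02 (95% interval -0.50 to 0.55, adjusted p = 0.986 with limma), with -0.34 for the dimmer probe set.

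Array by array, 2 member probe sets followed Nqo1 most closely, that of Gsr and the dimmer one of Txnrd1. Within each group Nqo1 and Gsr had the same order, sample 1 above 3 above 2 in the probiotic group and sample 1 above 2 above 3 in the high-fat group. The dimmer Txnrd1 probe set kept this order in the probiotic group only, since sample 2 was its highest high-fat array. Over the 6 arrays the Pearson correlation with Nqo1 was 0.84 for Gsr and 0.851 for the dimmer Txnrd1 probe set. The brighter Txnrd1 probe set, which represents the gene elsewhere, had only 0.33. Hmox1 ran differently, since sample 1 was its lowest array in each group but the highest for Nqo1, and its correlation with Nqo1 was 0.429, a value that 25.1% of the 14284 tested probe sets of other genes exceeded. The other brightest probe sets had correlations between -0.618 for Gclc and 0.513 for Gclm, and the dimmer Keap1 probe set had 0.658. Except for Hmox1, the share of probe sets of other genes above each member's value was not counted. These correlations are descriptions over 6 points that share 2 groups, and they include the group difference by which Nqo1 was chosen.

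**Figure D3:**
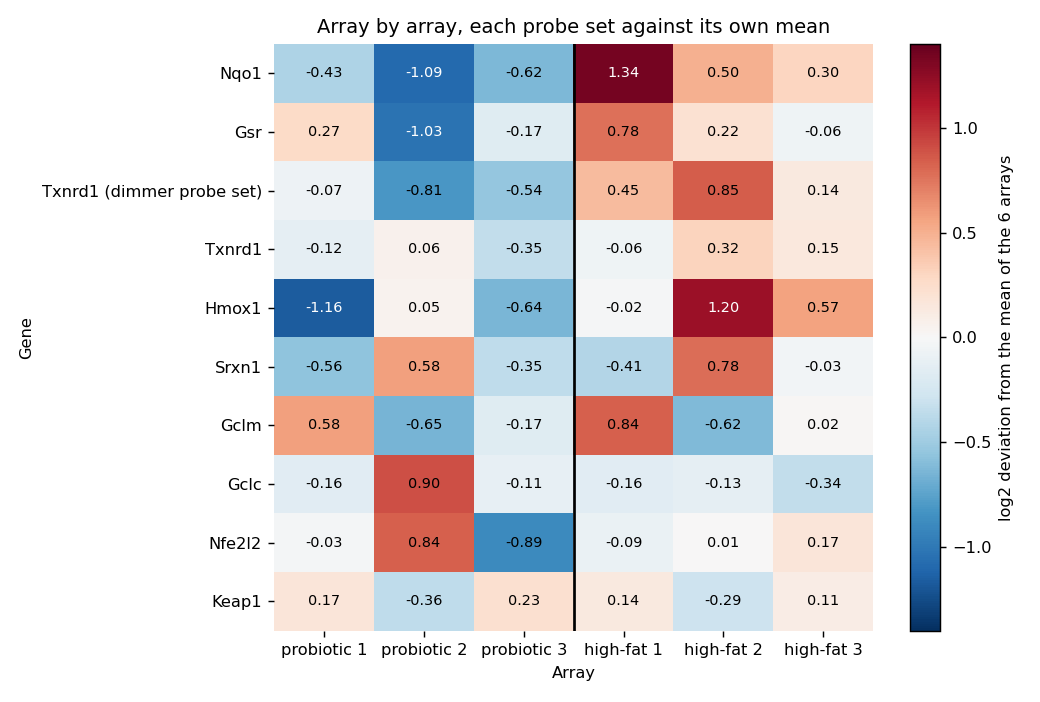
Log2 deviation of each probe set from its own mean over the 6 arrays, with probiotic arrays left of the line and high-fat arrays right of it, blue below and red above the mean. Nqo1 runs from -1.09 in probiotic sample 2 to 1.34 in high-fat sample 1. Srxn1 and Hmox1 share a high sample 2 in both groups, and Gclm shows the opposite order.

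The probe sets most like Nqo1 over the 6 arrays belonged to genes outside this pathway list. The 5 genes with the highest correlation were Ipp (0.991), Exph5 (0.988), Naprt (0.986), Ppp2r5c (0.985) and Xiap (0.973). Naprt, which makes NAD from nicotinic acid, had 8.99, 8.50 and 8.65 in probiotic samples 1, 2 and 3, and 9.81, 9.39 and 9.20 in high-fat samples 1, 2 and 3. Xiap, an inhibitor of caspases, differed by -1.03, Exph5 by -1.01, Ipp by -0.59 and Ppp2r5c, a regulatory subunit of protein phosphatase PP2A, by -0.29. The most opposite were Znf740 (-0.985), the phosphatase Dusp3, Arl16 and Pdxkl1 (-0.977 each), and Hadha (-0.976), a subunit of the mitochondrial trifunctional protein of fatty acid oxidation. Of the 14284 probe sets compared, 120 (0.84%) reached a correlation of at least 0.9 with Nqo1, and no core target was among them. The named genes were picked by their correlation with Nqo1, so the direction of their differences was built in by that choice. Their correlations are the extremes of many probe sets over 6 arrays, and no support is drawn from them.

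Beyond the core set, 30 further NRF2 targets of the liver were counted as a list. Of these, 23 had a probe set with that symbol alone and 21 passed the signal filter, with 14 lower and 7 higher in the probiotic group and 0 past the adjusted threshold. Their median difference was -0.11, against 0.0106 over all genes tested, and the differences ran from -0.83 to 0.41. Dropping probiotic sample 1 moved the median to 0.00605, and dropping high-fat sample 2 moved it to -0.186. Groups separated for 1 of the 21, the pentose phosphate enzyme Taldo1, by -0.16, against 6.42% of all genes tested. Gpx2, a glutathione peroxidase, had -0.83 with probiotic levels spread from 5.27 to 8.48, and 0.153 without probiotic sample 3. Ephx1, the microsomal epoxide hydrolase, had 14.39, 12.66 and 14.23 in probiotic samples 1, 2 and 3, and 14.36, 14.34 and 14.75 in high-fat samples 1, 2 and 3. Probiotic sample 2 alone was low, and the difference of -0.72 was -0.176 without it and 0.205 after adjustment for the Actb gap. The efflux pump Abcc4 had -0.62 (-0.334 without probiotic sample 2), and Ptgr1, which reduces reactive alkenals, had 0.41. Osgin1, a growth inhibitor induced by oxidative stress, had 0.41 (-0.114 without probiotic sample 2, -0.752 after the Actb adjustment). None of these passed the adjusted threshold.

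The list of NRF2 partners and turnover genes had most of its highest values on a single array. The list held 11 genes, small MAF proteins, the competing repressor Bach1, the KEAP1 ligase subunits Cul3 and Rbx1, and the kinase and ligase of the second degradation route, Gsk3b and Btrc, among them. It also held Nfe2l1 (0.318) and Nfe2 (0.353), relatives of NRF2 that are neither its partners nor its degraders. Of its 10 measured genes, 9 had their highest level in probiotic sample 2, an array that held the highest level of 20.8% of all genes tested. Mafk had 8.03, 10.14 and 8.40 in probiotic samples 1, 2 and 3, and 8.62, 8.49 and 8.63 in high-fat samples 1, 2 and 3. The related Maff had a level of 9.91 in probiotic sample 2 and 4.54 to 5.74 on the other 5 arrays, and it failed the signal filter through those. Of the 8 genes tested, 7 were higher in the probiotic group by a list median of 0.31, with 0 past the adjusted threshold, and without probiotic sample 2 the median was 0.102 and after the Actb adjustment -0.136. Btrc, the list's only gene with separate groups, had 0.52 (adjusted p = 0.73 with limma), against 5.93% of all genes tested separating higher.

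**Figure D4:**
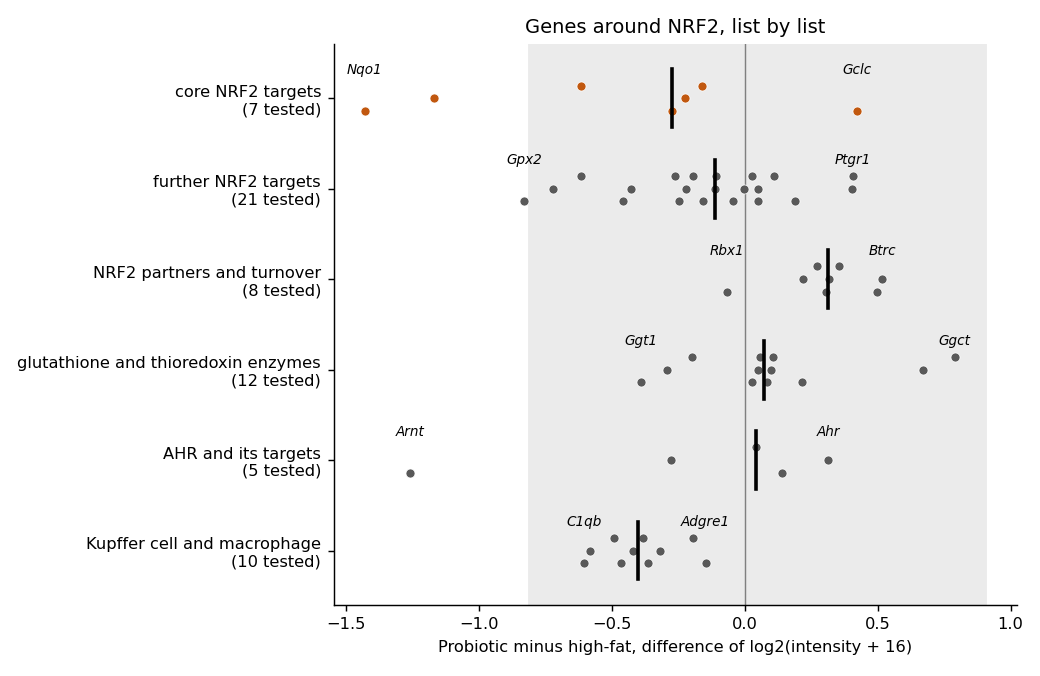
Differences of the tested genes of 6 lists, probiotic minus high-fat, 1 point a gene by its brightest probe set, with the list median as a black bar, the outermost genes named, and the central 95% of all genes tested as a grey band. The medians run from -0.40 for Kupffer cell and macrophage markers to 0.31 for the partners and turnover genes of NRF2, and that of the core targets with Nqo1 included is -0.27.

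Genes of the AHR, which also drives Nqo1, were mixed. Of 9 genes, 8 were measured and 5 passed the filter, 2 lower and 3 higher, with a median of 0.04 (-0.119 after the Actb adjustment, -0.0391 to 0.185 with single samples left out) and 0 past the adjusted threshold. Cyp1a2, the constitutive AHR target of liver, had 14.02, 13.84 and 13.80 in probiotic samples 1, 2 and 3, and 13.92, 13.94 and 13.39 in high-fat samples 1, 2 and 3, which overlap (difference 0.14, adjusted p = 0.863 with limma). Cyp1a1, the inducible target, was dim on all arrays, at 4.59 to 5.04 in probiotic and 4.39 to 4.73 in high-fat samples. Arnt, the partner of AHR, had 7.61, 6.26 and 6.63 in probiotic samples 1, 2 and 3, and 7.70, 8.57 and 8.01 in high-fat samples 1, 2 and 3. Its groups did not overlap (difference -1.26, adjusted p = 0.726 with limma), and after adjustment for the Actb gap it had -0.34. Groups separated lower for 1 of the 5 tested genes of this list, against 6.42% of all genes tested.

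Among 12 further enzymes of the glutathione and thioredoxin systems, all tested, 9 were higher and 3 lower in the probiotic group, with a median of 0.07 (-0.0515 without both sample 2 arrays, -0.00916 without high-fat sample 2) and 0 past the adjusted threshold. Ggct, which acts in the turnover of glutathione, had 10.90, 11.79 and 11.24 in probiotic samples 1, 2 and 3, and 11.02, 10.18 and 10.36 in high-fat samples 1, 2 and 3. Only high-fat sample 1 reached into the probiotic range, and the difference of 0.79 (adjusted p = 0.726 with limma) was 0.137 after adjustment for the Actb gap. Chac1, a glutathione-degrading enzyme, had 0.67 with a level of 11.15 in probiotic sample 2, and -0.264 without that sample and -1.05 after adjustment for the Actb gap. Mitochondrial thioredoxin, Txn2, had levels of 11.58 to 11.78 in probiotic and 11.85 to 12.00 in high-fat samples, a difference of -0.29 with no overlap (adjusted p = 0.735 with limma). Groups separated lower for 1 of the 12 enzymes, against 6.42% of all genes tested. The glutathione peroxidases Gpx1 and Gpx4 differed by 0.03 and 0.06.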

How the data were processed

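The value table that the authors deposited holds linear intensities of 31099 probe sets for each of the 6 arrays; the labels' protocols give Trizol extraction and biotin-labelled cRNA from 8 ug of RNA, and the software is not given in the sources used here. From the values, the mean after trimming 2% at each end was 500 on every array, and median intensities were 90.05 to 146.9. With 3 arrays a group, array number limits the precision. Here log2(intensity + 16) was quantile normalized, the 57 controls were left out, and probe sets at or above the 40th percentile of the mean were fitted with limma 3.58.1 in R 4.3.3 (lmFit, eBayes with trend, two-sided, Benjamini-Hochberg over 18625 probe sets). Symbols came from the platform annotation, updated by gene identifier to RefSeq GRCr8 (20764 probe sets matched); 20826 probe sets had 1 symbol, 436 several and 9780 are unnamed here. Genes with several probe sets are represented by the brightest, unless another is named. The search for genes most like and most opposite to Nqo1 instead compared 14284 probe sets, whether or not they were the brightest of their gene. The fit was tested on simulated data. Members, lists and rules were chosen with earlier results of these arrays known. Named genes were mainly the members, list genes with large differences in either direction and the 5 probe sets most and least correlated with Nqo1. Among the further NRF2 targets, Akr7a3 (-0.46) and Pir (-0.428) were passed over, although Ptgr1 and Osgin1 had smaller differences in size. Adgre1 was named as the smallest difference of its list. Taldo1, Mafk, Maff, Cyp1a1, Cyp1a2, Txn2, Gpx1 and Gpx4 were singled out after their values were seen. Quantile normalization removes overall shifts between groups, and fold changes of dim probe sets are understated. Figures used matplotlib 3.10.9.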

Additional observations from a re-analysis of the deposited data

How the results depend on the processing

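None of 16 other settings took a member gene other than Nqo1, read by its brightest probe set, past the adjusted threshold (0 in each). The median of the other core targets ranged from -0.387 to -0.14 over 17 settings and was below 0 in all. Nqo1, by which the set was chosen, ranged from -1.64 to -1.12. All its probiotic arrays lay below all its high-fat arrays, so leaving samples out could not turn its sign. The count of probe sets called, 4 in the fit described, was 3 to 12 with single samples left out, 12 when probiotic sample 1 was dropped and 9 when high-fat sample 1 was, and at an unadjusted p under 0.05 it was 1989 without the filter, 423 after adjustment for the Actb gap and 703 without both sample 2 arrays, against 1275; with single samples left out it was 795 to 1772. Some members near 0 changed sign. Nfe2l2 had 0.0158 with median centring. Slc7a11 had -0.0172 without normalization and -0.00139 with a pseudocount of 64. With the mean over probe sets Keap1 had -0.159, Srxn1 0.0678 and Txnrd1 -0.614. The second Srxn1 probe set had -0.0512 with array weights, -0.334 with the Actb gap and -0.0933 without both sample 2 arrays. After adjustment for the Actb gap the sign turned for Gclc (-0.16), Gclm (0.12), Gsr (0.0631), the dimmer Keap1 probe set (0.00337), Ephx1 (0.205), Osgin1 (-0.752), Mafg (-0.351), Mafk (-0.986), Chac1 (-1.05), C1qb (0.153) and the partners' median (-0.136). With single samples or both sample 2 arrays left out, the ranges that crossed 0 were -0.499 to 0.378 for Nfe2l2, -0.112 to 0.209 for Keap1, -0.512 to 0.217 for Gclm, -0.2 to 0.517 for Slc7a11, -0.565 to 0.109 for Srxn1, -0.298 to 0.259 and -0.109 to 0.961 for its other probe sets, -0.0807 to 0.147 for the second Gclc probe set, -1.52 to 0.153 for Gpx2, -0.415 to 0.798 for Osgin1, -0.0376 to 0.756 for Mafg, -0.427 to 0.691 for Mafk, -0.0376 to 0.257 for Cyp1a2, -0.339 to 1.17 for Chac1, and for list medians -0.199 to 0.00605 for the further NRF2 targets, -0.1 to 0.185 for AHR and its targets and -0.0515 to 0.0838 for the glutathione and thioredoxin enzymes. The cause of these changes was not tested. The Actb gap did not overlap between the groups, so its adjustment cannot be told apart from the treatment. The values do not settle whether same-numbered arrays share more than a number. Their deviations correlated at 0.144, 0.027 and 0.0774. Samples 1 and 3 matched best with their own number, and sample 2 with number 3. With the replicate block 4 probe sets were called, 0 of these members passed and the Nqo1 difference was -1.43. At an unadjusted p under 0.05 there were then 1527 probe sets, against 1275. Hmox1 had an adjusted p of 0.243 with the block, the lowest over its settings, which reached 0.999. The SE of its difference was 0.173 with the block, against 0.367 in the fit described. Dim probe sets such as that of Slc7a11 limit what can be read.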

Other observations

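Neutrophil markers, which belong to no comparison above, had lower means in the probiotic group for 3 of 3 tested genes, while the fourth measured, Csf3r, below the signal filter, had a difference of 1.25 with levels of 5.938 to 6.266 in probiotic and 4.515 to 5.497 in high-fat samples. The summed linear signals were 333 to 565 in probiotic and 639 to 1033 in high-fat samples over 4 measured genes. A linear sum weighs bright genes most, and S100a9 (-1.55) had the highest mean of the 4 in each group. Groups separated lower for S100a9 alone, 1 of the 3 tested genes, against 6.42% of all genes tested. S100a8 (-1.07) and Ncf1 (-0.516) overlapped between the groups. Sinusoidal endothelial markers (5 measured genes) had sums of 5112 to 9049 in probiotic and 5713 to 6566 in high-fat samples. Stellate cell and fibroblast markers (7 measured genes) summed to 4610 to 5187 in probiotic and 4472 to 6333 in high-fat samples, and cholangiocyte markers (4 measured genes) to 1800 to 2089 in probiotic and 1400 to 1838 in high-fat samples. The mean log2 deviation of the 6 other tested core targets was -0.192, -0.0159 and -0.298 in probiotic samples 1, 2 and 3, and 0.162, 0.295 and 0.0496 in high-fat samples 1, 2 and 3. Without Hmox1 the same mean was 0.00189, -0.029 and -0.23 in probiotic samples 1, 2 and 3, and 0.198, 0.113 and -0.054 in high-fat samples 1, 2 and 3, and the groups then overlapped. All 4 red blood cell markers and 9 of 10 NRF2 partner and turnover genes had their highest value in probiotic sample 2, the array with the largest Actb gap.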
